A study of Mus musculus with 12 samples.

Results

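A set of 6 genes that mark the D2 class of medium spiny neurons were followed through the H2A.Z peak lists of mouse nucleus accumbens: Drd2, Adora2a, Penk, Gpr6, Gpr52 and Sp9. They were chosen by name, 5 of them are among the 16758 gene names of the lists, and every peak assigned to one of them at any distance was taken. H2A.Z was profiled by chromatin immunoprecipitation and sequencing in 12 samples. The name of a condition gives the first and then the second treatment: the samples comprised saline then cocaine (SC, acute), cocaine then saline (CS, withdrawal), cocaine then cocaine (CC, challenge) and saline then saline (SS), with 3 samples each. The labels give nucleus accumbens as the source of all samples. Strain, sex, age, dose and intervals are not stated in the labels. Each condition was deposited as 1 peak list, so there is no spread between samples, no difference between conditions was tested, and no p-value is given. Coordinates are on mm10.

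Medium spiny neurons are the GABAergic projection neurons of the striatum, and the D2 class projects mainly to the ventral pallidum and forms the indirect pathway. Dopamine acts on these cells through the D2 receptor, which lowers cAMP, and adenosine acts through the A2A receptor, which raises it. H2A.Z, a variant histone that takes the place of H2A, is found in nucleosomes around the start sites of genes. The label D2 is background knowledge about where these genes are transcribed: RNA was not measured here, and an H2A.Z peak does not mark a cell type. The lists come from tissue that holds several cell types, so fewer cells with H2A.Z at a gene and less H2A.Z per cell cannot be told apart.

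Promoters of the D2 genes differed in where H2A.Z lay, and RefSeq windows of 300 bases (250 before the start site and 50 after it, assembly GRCm38.p6) are printed for the 3 members that the promoter table holds, because 1 of them lay under a peak and 2 did not. Capitals mark GC boxes (GGGCGG on either strand) and the cAMP response element (CRE, TGACGTCA, a palindrome); the TATA box (TATAAA on either strand) was also searched, the 3 motifs do not overlap here, and no TATA match was in these windows. The windows are chr9:49340153-49340452 on the plus strand for Drd2, chr10:41072241-41072540 on the minus strand for Gpr6 and chr2:73271676-73271975 on the plus strand for Sp9, each written 5′ to 3′ on the strand of its gene.
Drd2: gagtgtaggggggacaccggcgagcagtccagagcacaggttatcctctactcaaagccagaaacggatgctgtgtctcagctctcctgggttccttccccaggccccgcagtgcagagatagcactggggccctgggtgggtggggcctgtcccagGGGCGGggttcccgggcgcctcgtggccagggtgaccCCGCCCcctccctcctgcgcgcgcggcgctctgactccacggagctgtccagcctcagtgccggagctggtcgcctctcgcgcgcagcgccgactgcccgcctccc
Gpr6: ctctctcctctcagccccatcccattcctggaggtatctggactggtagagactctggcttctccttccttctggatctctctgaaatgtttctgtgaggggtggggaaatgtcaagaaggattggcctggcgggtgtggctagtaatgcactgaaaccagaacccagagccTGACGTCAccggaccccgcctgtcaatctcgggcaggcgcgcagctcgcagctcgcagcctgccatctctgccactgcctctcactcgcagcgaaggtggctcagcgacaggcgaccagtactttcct
Sp9: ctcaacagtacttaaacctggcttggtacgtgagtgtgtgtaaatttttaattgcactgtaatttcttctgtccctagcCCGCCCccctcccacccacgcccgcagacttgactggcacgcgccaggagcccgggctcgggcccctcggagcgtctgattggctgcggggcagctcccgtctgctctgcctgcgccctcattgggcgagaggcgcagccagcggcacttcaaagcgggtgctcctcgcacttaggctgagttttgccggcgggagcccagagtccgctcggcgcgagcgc
Drd2 held 2 GC boxes, which begin 93 and 56 bases before the RefSeq start site, and 23 CpG dinucleotides. Gpr6 held 1 CRE, which begins 78 bases before the start site, no GC box and 13 CpG. Sp9 held 1 GC box, 171 bases before the start site, and 25 CpG. Among all 32851 windows of the table, 35.7% held a GC box, 1.79% a CRE and 13.6% a TATA box, and the median CpG number was 7. H2A.Z windows were CpG-rich in general: the median was 23 CpG in windows overlapped by an SC peak and 23 in those overlapped by an SS peak, while windows without an SS peak had a median of 3. Of all windows 38% were overlapped by an SC peak, 4.65% by a CS peak, 3.26% by a CC peak and 40.1% by an SS peak. The Drd2 window lay almost wholly under its peak, with 295 of 300 bases covered in SC and 299 in SS when the deposited starts are read as counting from 0. The Sp9 window was as CpG-rich as that of Drd2 and was not overlapped in any of the 4 lists, and neither was the Gpr6 window.

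Of the 6 D2 genes 5 carried an H2A.Z peak in SC and in SS, and none carried one in CS or CC. Drd2, Penk, Adora2a, Gpr6 and Sp9 had 1 peak each in SC and 1 peak each in SS, and Gpr52 had no assigned peak in any list. A promoter peak, with its middle within 1000 bp of the transcription start site (TSS) in the deposited annotation, was found for 3 of 6 genes in SC, 0 of 6 in CS, 0 of 6 in CC and 4 of 6 in SS. Among the 21896 protein-coding genes of the RefSeq table, 50.9% had a promoter peak in SC, 17.2% in CS, 13.5% in CC and 53.4% in SS. The members' counts in SC and SS were thus near the background. The lists differed in length and in the width of their peaks: SC held 23170 peaks with a median width of 727 bp, CS 6417 with 110 bp, CC 4827 with 107 bp and SS 24655 with 734 bp. Their highest q-values were 0.000572 in SC, 0.051 in CS, 0.0625 in CC and 0.000544 in SS. A −log10 q of at least 5 was reached by 22686 peaks in SC, 1143 in CS, 947 in CC and 24079 in SS. Most CS and CC peaks, which also enter the shares above, thus lay below this limit, unlike most SC and SS peaks. The part of list length, peak width and q-value range in the members' absence from CS and CC was not tested.

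**Figure D1:**
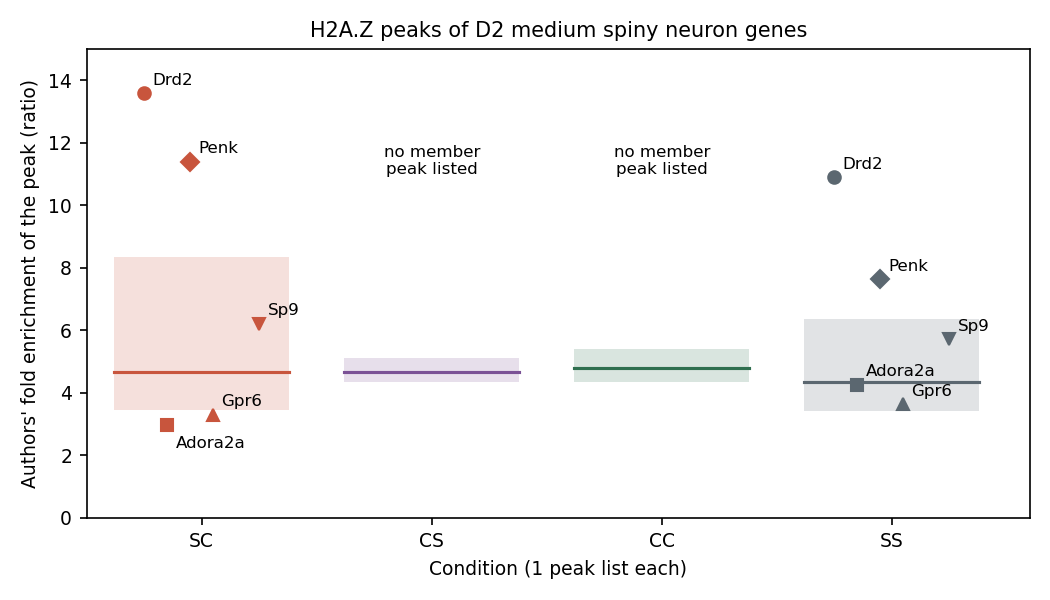
Authors' fold enrichment (a ratio over background) of the peak of each D2 gene in the SC, CS, CC and SS lists; the line is the median of all peaks of that list and the band runs over the middle of its distribution, between the quartiles. Drd2 and Penk lie above the upper quartile in SC and in SS, and the CS and CC lists hold no member peak; a fold describes a peak within its own list.

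Drd2, the inhibitory D2 dopamine receptor gene, had the strongest peak of the 6. Its fold enrichment, computed by the authors for each peak, was 13.6 in SC (−log10 q of 211) and 10.9 in SS (−log10 q of 102). These values were higher than those of 95.6% of SC peaks and 95.2% of SS peaks. Here and below, a fold describes a peak within its own list, and a difference in fold between lists was not tested. The peak spanned chr9:49340157-49340883 in SC and chr9:49340153-49340932 in SS, and its middle lay 107 bp upstream of the deposited TSS in SC and 85 bp upstream in SS. The deposited annotation places that TSS 224 bp from the RefSeq start site, and both sites lay under the peak in both lists. The SC and SS peaks shared 93.2% of their joint length.

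Penk, which encodes the precursor of the enkephalin opioid peptides, came second. The fold enrichment was 11.4 in SC (−log10 q of 164) and 7.65 in SS (−log10 q of 69.8), above 87.0% of SC peaks and 80.5% of SS peaks. The peak was centred on the start site, with its middle 4 bp downstream of the TSS in SC and 10 bp upstream in SS. It covered chr4:4138469-4139162 in SC and chr4:4138462-4139196 in SS, which share 94.4% of their joint length. Drd2 and Penk thus had peaks of ordinary width, 726 and 693 bp in SC and 779 and 734 bp in SS, at the same place in both lists.

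Adora2a, the gene of the stimulatory A2A adenosine receptor, had a weaker peak whose place differed between the lists. The fold enrichment was 2.96 in SC (−log10 q of 7.01) and 4.26 in SS (−log10 q of 12.8). In SC 9.21% of the peaks were weaker, and in SS 48.2% were. The SC peak (chr10:75317203-75317702, 499 bp) began 101 bp downstream of the TSS, whereas the SS peak (chr10:75316757-75317648, 891 bp) ran from 345 bp upstream to 546 bp downstream and so included the TSS. The middles lay 250 bp apart, a distance larger than in 89.6% of the 19071 overlapping pairs of SC and SS peaks, whose median was 57 bp. Both peaks shared 47.1% of their joint length, against a median of 81.2% over all pairs. In SS 138 peaks, this one included, had exactly the same fold enrichment and q-value.

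Gpr6, an orphan receptor that couples to cAMP production, had its peak about 1 kb inside the gene. The middle lay 1053 bp downstream of the TSS in SC and 995 bp downstream in SS. The promoter window of 1000 bp therefore counted Gpr6 in SS and not in SC, although both peaks overlapped over 421 bp, the whole of the SC peak. The fold enrichment was 3.30 in SC (chr10:41071022-41071443, −log10 q of 7.85) and 3.63 in SS (chr10:41070912-41071668, −log10 q of 9.58). These are weak peaks: 21.0% of SC peaks and 31.9% of SS peaks were weaker. RefSeq places the gene at chr10:41069977-41072290, so the peak lay within the transcribed region, and the printed promoter window was 797 bp from the peak in SC and 572 bp from it in SS.

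Sp9, a zinc finger transcription factor needed in mice for the formation of D2 neurons, carried a broad peak downstream of its start site. Its middle lay 2001 bp downstream of the TSS in SC and 1997 bp in SS, within the RefSeq gene (chr2:73271926-73275771). The peak was 1530 bp wide in SC (chr2:73273202-73274732) and 1501 bp wide in SS (chr2:73273213-73274714), or 2.10 times the median width of the SC list and 2.04 times that of the SS list. The fold enrichment was 6.22 in SC (−log10 q of 86.3) and 5.71 in SS (−log10 q of 48.7), above 66.7% of SC peaks and 70.0% of SS peaks. Of all members Sp9 had the most alike pair of peaks, which shared 98.1% of their joint length. Peaks of this class, 1 to 3 kb from a TSS, made up 4.38% of the SC list and 4.33% of the SS list. A pair of genes chosen after their values were seen had peaks in the same class. Sp8, the closest relative of Sp9, had its stronger peak 1473 bp downstream in SC (7.57) and 1578 bp downstream in SS (5.83), but unlike Sp9 it also had a promoter peak, 448 bp upstream in SC (4.43) and 522 bp upstream in SS (3.01). Zfp503, a zinc finger gene of striatal development, had its peak at 2050 bp in SC (9.89) and 2023 bp in SS (6.46). Most striatal transcription factors of the fixed list, 14 of 16, did have an SS promoter peak, as did 53.4% of protein-coding genes.

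**Figure D2:**
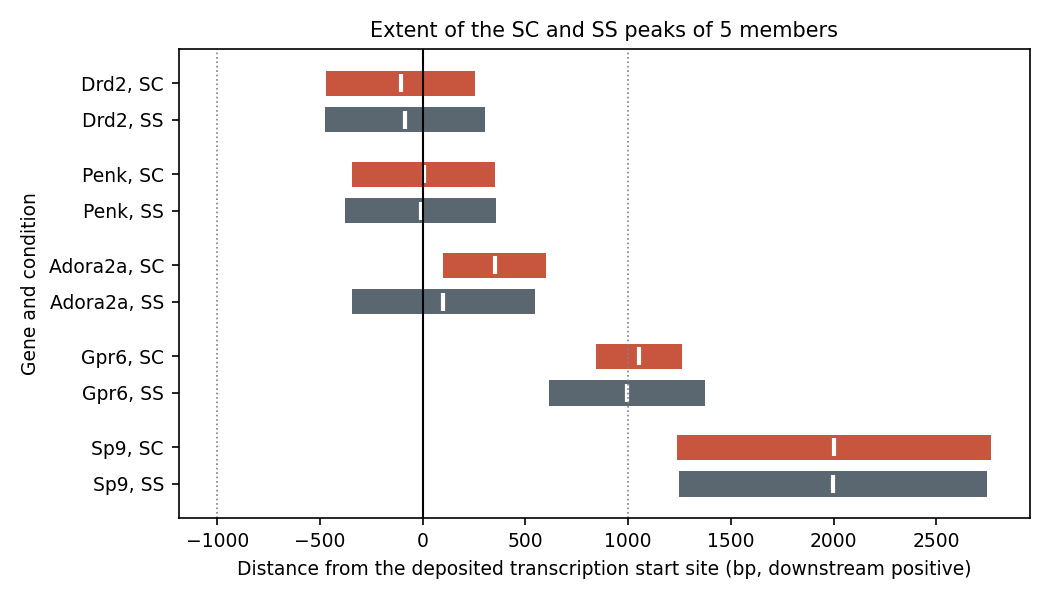
Extent of each member's peak in SC and SS, in bp from the TSS of the deposited annotation on the strand of the gene, with the middle of the peak as a white tick and the limits of the promoter window as dotted lines. Drd2 and Penk peaks sit on the TSS, the Adora2a peak of SC begins 101 bp downstream of it, and the Sp9 peaks lie beyond 1000 bp in both lists.

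Gpr52, an orphan receptor of D2 neurons that couples to cAMP production, was the one member with no peak in any list. Its RefSeq gene (chr1:160574717-160579704) lies within the interval of the longer Rabgap1l gene, chr1:160219174-160793476. The nearest SC peak had its middle 9.45 kb from the nearer end of Gpr52 and was assigned to Gm37215, with a fold enrichment of 3.13. The nearest peaks in CS and in SS were both 213 kb away and were assigned to Rabgap1l, with folds of 4.02 in CS and 8.07 in SS. In CC the nearest peak was 380 kb away and was assigned to Mrps14.

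A total of 4 members had a promoter peak in SS, and of these 3 also had one in SC, 0 in CS and 0 in CC. Among all 13585 genes that SS lists with a promoter peak, the share with a promoter peak was 88.2% in SC, 28.8% in CS and 22.7% in CC. For 4 genes these shares come to 3.53, 1.15 and 0.908 genes, so counts of 3, 0 and 0 are each within about 1 gene of the background and mark nothing particular to the D2 genes. The same shares were computed within 5 groups of SS promoter genes of equal size, sorted by SS fold enrichment. Here and below, a gene with several promoter peaks in a list is represented by the strongest of them. In the strongest group, which holds Drd2, 97.6% had a promoter peak in SC, 30.7% in CS and 25% in CC. In the group of Penk these were 97%, 26.4% and 21.1%, and in the group of Adora2a 87.9%, 31.9% and 25.1%. In the weakest group, which holds Gpr6, they were 66%, 10.6% and 7.4%. In the strength group of Drd2 most genes thus had no promoter peak in CS or in CC.

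Overlap of peaks does not depend on the gene named in the other list. All 5 SS member peaks were overlapped by an SC peak, and 0 of 5 by a CS or CC peak. Over all SS peaks 75.7% were overlapped in SC, 20.3% in CS and 15.7% in CC. For SS peaks 1 to 3 kb from a TSS, the class of Sp9, the shares were 63.9%, 11.3% and 9.36%.

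Of the members with a peak, 4 had no other listed peak within 50 kb, while Sp9 did. Within 50 kb of the start sites of Drd2, Adora2a, Penk and Gpr6, the member's own peak was the 1 peak listed in SC and the 1 peak listed in SS, and CS and CC listed none. Among all SS promoter genes the median was 2 peaks within 50 kb in SC, 1 in CS, 0 in CC and 3 in SS, and 27.9% had at most 1 in SC and 23.0% at most 1 in SS. Around Sp9 there were 2 peaks in SC and 3 in SS within 50 kb, as many as these medians, including the promoter peak of Cir1, with folds of 4.98 in SC and 4.26 in SS, and an SS peak without an assigned gene 7.84 kb from the Sp9 start site (3.39).

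The nearest CS peaks lay 286 kb from the Drd2 start site, 200 kb from Adora2a, 201 kb from Penk, 232 kb from Gpr6 and 56.9 kb from Sp9. In CC the distances were 285 kb for Drd2, 106 kb for Adora2a, 564 kb for Penk, 232 kb for Gpr6 and 114 kb for Sp9. Among SS promoter genes without a promoter peak in CS, the median distance to the nearest CS peak was 86.3 kb, with quartiles of 33.0 and 224 kb. Among those without one in CC the median was 113 kb, with quartiles of 42.9 and 293 kb. Sp9 in CS and Adora2a in CC were nearer than these medians, and the other members with a peak were farther, Sp9 in CC only just. Sp9 was the member nearest to a CS peak, and that peak belonged to Ola1, which had promoter peaks of fold 10.6 in SC, 5.07 in CS and 7.68 in SS.

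**Figure D3:**
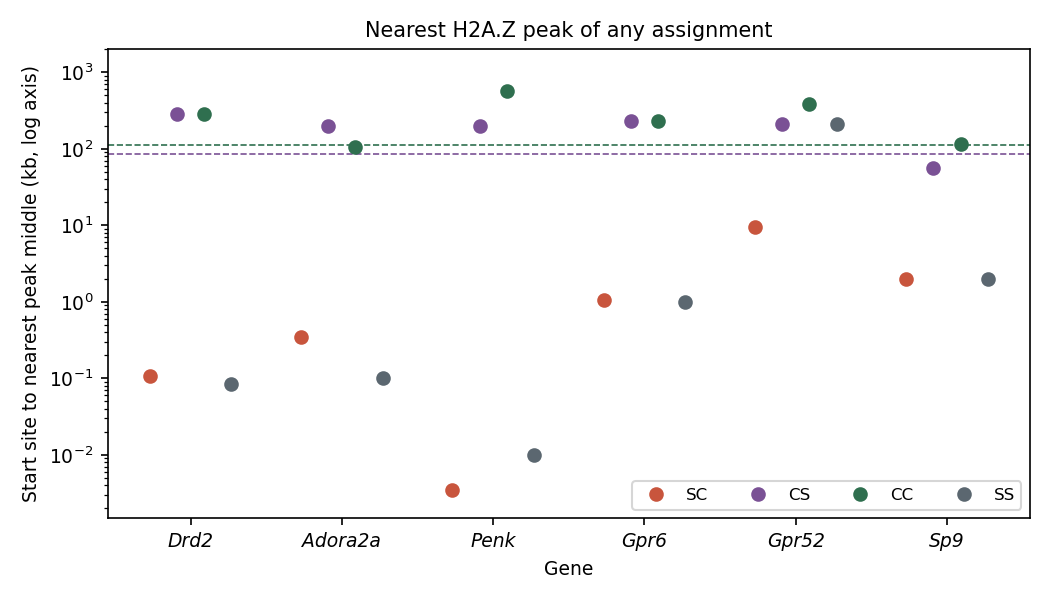
Distance from the start site of each D2 gene to the middle of the nearest peak of any assignment in SC, CS, CC and SS, in kb on a log axis (from the nearer end of the gene for Gpr52); dashed lines are the medians for CS and CC over SS promoter genes that have no promoter peak in that list. CS and CC points lie between 56.9 and 564 kb, on both sides of the medians of 86.3 kb in CS and 113 kb in CC.

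Of 12 close relatives of the members, 6 had a promoter peak in SC, 0 in CS, 0 in CC and 7 in SS, where the shares of all protein-coding genes were 50.9%, 17.2%, 13.5% and 53.4%. The strongest were Gpr12 (12.13 in SC and 9.68 in SS) and Gpr3 (12.02 and 8.11), orphan receptors of the Gpr6 family, followed by the adenosine receptors Adora2b (9.56 and 5.44) and Adora1 (6.51 and 4.93). Both Gpr6 relatives had peaks within 155 bp of their TSS in both lists, in contrast to the place of the Gpr6 peak about 1 kb downstream.

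Of 21 genes that act downstream of the D2 and A2A receptors, 17 had a promoter peak in SC, 2 in CS, 3 in CC and 17 in SS. The counts come to 9.52% of the list in CS and 14.3% in CC, against 17.2% and 13.5% of protein-coding genes. In SC and in SS they come to 81.0%, against 50.9% and 53.4%. The median SS fold of genes with an SS promoter peak was 5.95 for the members, 6.87 for this signalling list, 4.93 for the family relatives, 6.77 for the enkephalin genes, 5.31 for the striatal transcription factors and 5.15 for the D1 genes, beside 5.65 over all SS promoter genes. The receptor kinase gene Grk3 had folds of 14.0 in SC and 11.5 in SS, the phosphodiesterase gene Pde1b 9.26 and 9.20, and the G protein beta gene Gnb1 9.20 and 8.27. Gnal, the stimulatory G protein alpha subunit that couples the A2A receptor to adenylyl cyclase in striatum, had promoter peaks in SC (14.3), CC (5.38) and SS (11.2). Gnai1, an inhibitory alpha subunit through which D2 receptors signal, likewise had them in SC (9.51), CC (4.58) and SS (7.91). Arrb2, a beta-arrestin gene, had them in SC (8.97), CS (4.07) and SS (7.13). Gnao1, another inhibitory-class alpha subunit, was named in CS (5.35) and CC (4.35) only, but these peaks overlapped SC and SS peaks that the deposited annotation assigns to 4930488L21Rik. When peaks below a −log10 q of 5 were left out, no gene of this list had a promoter peak in CS or CC.

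Genes of enkephalin processing and its receptors included 3 with a promoter peak in CS. Of 7 genes, 5 had a promoter peak in SC, 3 in CS, 1 in CC and 6 in SS. The shares were 71.4% in SC, 42.9% in CS, 14.3% in CC and 85.7% in SS. Among protein-coding genes they were 50.9%, 17.2%, 13.5% and 53.4%. Oprd1, the delta opioid receptor at which enkephalins act, had folds of 14.3 in SC and 11.8 in SS, and the peptide-trimming carboxypeptidase gene Cpe had 11.3 and 9.05, and neither had a peak in CS or CC. Scg5, a chaperone of the prohormone convertase PC2, had promoter peaks in SC (4.87), CS (4.96), CC (5.55) and SS (4.88). These folds come from lists of unlike peak width and do not show a rise or a fall between conditions. Mme, the enkephalin-degrading neprilysin, had them in SC (11.6), CS (4.69) and SS (8.66). Pcsk1, a prohormone convertase, had them in CS (4.32) and SS (3.94). When peaks below a −log10 q of 5 were left out, the count in CS was 0, and that in CC stayed at 1 (Scg5).

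Striatal transcription factors, the list nearest to Sp9 in role, had promoter peaks at 12 of 16 genes in SC, 0 in CS, 1 in CC and 14 in SS. The shares were 75.0%, 0%, 6.25% and 87.5%, beside 50.9%, 17.2%, 13.5% and 53.4% of protein-coding genes. Foxp1, a forkhead factor of medium spiny neurons, had folds of 11.5 in SC and 10.8 in SS at its strongest promoter peak, and had weaker ones in both lists. The D1 lineage factor Isl1 (12.9 and 9.24) and the progenitor factor Gsx2 (13.3 and 8.85) were also strong in both. Foxp2 was the 1 gene with a CC promoter peak, at 7.01 in SC, 4.08 in CC and 3.99 in SS, and its CC peak did not reach a −log10 q of 5.

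**Figure D4:**
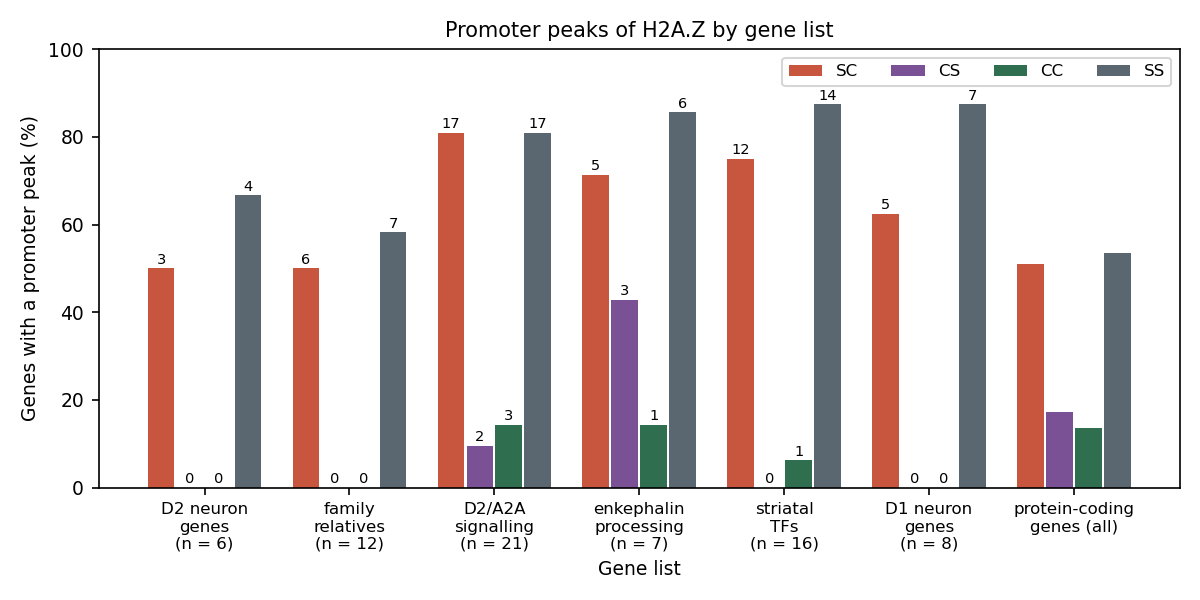
Share of genes with a promoter peak in SC, CS, CC and SS for the D2 genes, the wider lists, the D1 genes and all protein-coding genes of the RefSeq table; numbers above bars count genes and n is the size of the list. D2 genes, D1 genes and family relatives have no promoter peak in CS or CC, where 17.2% and 13.5% of protein-coding genes have one. The lists are short and share some genes.

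Genes of D1 neurons, the other class of medium spiny neurons, were set beside the D2 genes. The lists overlap: Isl1 and Ebf1 are also among the striatal transcription factors, and Pdyn among the family relatives. Their peaks are counted in both lists. Of 8 D1 genes, 5 had a promoter peak in SC, 0 in CS, 0 in CC and 7 in SS, against 3, 0, 0 and 4 of 6 D2 genes. The D1 shares were 62.5%, 0%, 0% and 87.5%, beside 50.9%, 17.2%, 13.5% and 53.4% of protein-coding genes. The D1 receptor gene Drd1 and the dynorphin precursor gene Pdyn, the counterparts of Drd2 and Penk, had peaks in SS only, with folds of 3.76 and 3.48. These folds fall in the weakest strength group (1.47 to 4.11), of which 66% had a promoter peak in SC. In the groups of Drd2 and Penk the shares were 97.6% and 97%, so the 2 pairs of genes are not matched in strength. Sfxn1, Isl1 and Ebf1 were strong in SC (13.0, 12.9 and 14.4) and in SS (10.7, 9.24 and 8.53). Of the other cell types in the tissue, promoter peaks were found in SC, CS, CC and SS at 5, 0, 0 and 8 of 10 interneuron markers, at 2, 0, 0 and 3 of 6 astrocyte markers, at 2, 0, 1 and 2 of 6 oligodendrocyte markers and at 0 of 6 microglial markers in each list. The same shares of protein-coding genes are the background of these short lists of 6 to 10 genes.

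Drd2, Penk and Adora2a had promoter peaks in SC and SS and none in CS or CC. Of the 21896 protein-coding genes of the RefSeq table, 5943 others had this pattern. The likeness of a gene to a member was measured as the sum of the differences in percentile of fold enrichment within the SC list and within the SS list. Nearest to Drd2 were Bend5 (13.5 in SC and 10.9 in SS), Pex7 (13.6 and 10.9) and Podxl (13.6 and 10.9), with sums of 0.190, 0.357 and 0.453 percentile points. Nearest to Penk were Ccdc9 (11.5 and 7.64), Nrp2 (11.4 and 7.70) and Rfx2 (11.4 and 7.72), with sums of 0.259, 0.278 and 0.321. Nearest to Adora2a were Sertad3 (2.97 and 4.24), Kank3 (3.01 and 4.26) and Ift43 (3.01 and 4.26), with sums of 0.762, 1.88 and 2.23. Over 2 lists this measure rests on 2 values per gene.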

How the data were processed

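H2A.Z was immunoprecipitated from cross-linked chromatin of nucleus accumbens, per the labels' protocols, in 12 samples of 4 conditions. The authors deposited 1 annotated peak list per condition; whether the 3 samples were pooled before calling is not stated. Per the submitters' processing notes, the build was mm10 and the tools included cutadapt, HISAT, SAMtools and MACS2; their versions and settings, and the control library, are not stated. Total histone H3 libraries were not analysed here. The deposited fold enrichment is a ratio over background and the deposited q-value is linear, per the file headers; both belong to a peak and were used only to describe or rank peaks within a list. The deposited distance equalled the peak middle minus the TSS within 1 bp in 100% of assigned peaks. Only peaks from 3000 bp upstream of a TSS to the gene's end carry a gene name.

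Overlaps were counted with bedtools 2.31.1 (at least 1 bp) and tables were made with pandas 2.3.3 in python 3.11.15. The overlap and promoter counts were tested on simulated data. Sequencing depth per sample is unknown here, so no interval is given. Of 16758 gene names, 89.2% matched a symbol of the RefSeq table (GRCm38.p6, the assembly of mm10), as did all 6 members; promoter windows were in the table for 3 members and not for Penk, Adora2a and Gpr52. The members and the 9 wider lists were chosen with earlier results of these data known. Named from 4 of the wider lists were the 4 genes with the strongest SS promoter peak and any gene with a CS or CC promoter peak, and as genes of like pattern the 3 nearest per member; a gene that this rule would name is not reported here. Genes named for neighbouring peaks, and those of the D1 list, serve comparison.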

Additional observations from a re-analysis of the deposited data

How the results depend on the processing

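Each count was repeated with promoter windows of 500 and 3000 bp, with peaks of −log10 q of at least 5 and with lists of equal length (4827 peaks), and member peaks also with an overlap of 50% of the shorter peak, with any peak within 50 kb, and with promoters held by an overlapping peak. Of 193 repeated counts 166 were within 1.5 times of the reported one. Those of the members in CS and CC were 0 under every alternative run. CS and CC list no member peak at any distance. Leaving out peaks, changing the promoter window in either direction or asking for more overlap therefore could not have changed these counts. Only the runs with any peak within 50 kb and with promoters held by an overlapping peak could have, because they ignore the assigned gene. The 166 also include counts of 0 in the wider lists, which leaving out peaks or narrowing the window could not have changed. Equal length left the CC list as it was, because CC is the shortest. The total of 166 is therefore not a measure of robustness. With the 3000 bp window 5 members had a promoter peak in SC, and 5 of those in SS had one in SC. With lists of equal length the members' promoter genes in SS numbered 2, and their peaks 2 in SC and 2 in SS (Drd2 and Penk); the lowest fold left was 9.60 in SC and 7.64 in SS, above the other members. With lists of equal length, promoter genes in SC and SS numbered 2 and 2 for family relatives, 2 and 6 for receptor signalling (1 in CS), 3 and 3 for enkephalin genes, 6 and 5 for transcription factors, 3 and 3 for D1 genes, 2 and 2 for interneuron markers, 1 and 1 for astrocyte markers and 0 and 0 for oligodendrocyte markers. With −log10 q of at least 5, which leaves 1143 CS and 947 CC peaks, counts were 0 for receptor signalling in CS and in CC, 0 for enkephalin genes in CS, 0 for transcription factors in CC and 0 for oligodendrocyte markers in CC. The count of enkephalin genes in CC stayed at 1. No paired analysis was possible because the lists hold no values per sample, and for the same reason no sample could be left out. Depth per sample is unknown, so a gene without a listed peak may carry H2A.Z below the calling threshold.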
